A study of Mus musculus with 4 samples.

Results

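Dividing B progenitors of mouse bone marrow lacking both Mll3 and Mll4 were examined by single-cell RNA sequencing with barcoded surface antibodies. The cells were chosen by their measured UMIs (unique molecular identifiers, which count captured RNA molecules) in the Mll3/4 deleted library. Barcodes were filtered to those with 500 or more genes, 1000 or more gene UMIs and no more than 10% of UMIs from mitochondrial genes. A filtered cell was taken as a B progenitor when Cd79a, Cd79b, Vpreb1, Vpreb3, Igll1 and Ebf1 together held at least 20 of every 10000 gene UMIs. It was taken as dividing when Mki67, Top2a, Cdk1, Ccnb1, Ccnb2, Cenpf, Birc5 and Tpx2 together held at least 5 of every 10000. The rule found 2665 cells among 7323 B progenitors and 7408 filtered cells of that library, out of 27166 filtered cells and 34398 barcodes in the 4 libraries together. Because RNA of these same cells selected them, every gene difference below describes the cells and no gene was tested.

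The study profiled CD45.2+ Kit+ bone marrow cells at 10 weeks after transplantation in 4 libraries, 1 for each of a control, an Mll3 deletion, an Mll4 deletion and the combined Mll3/4 deletion. Mll3 (gene Kmt2c) and Mll4 (gene Kmt2d) are methyltransferases that place H3K4 methylation, chiefly monomethylation at enhancers. All 4 groups share transplantation, the CD45.2+ Kit+ isolation and antibody staining. The strain, the driver and timing of deletion, the age, the sex, the number of animals in a library and the meaning of its 2 hashtag antibodies are not given in the sources used here. With 1 library for a genotype, the genotype and the library cannot be told apart, and the intervals below cover counting error only.

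Early B progenitors depend on the transcription factors Ebf1 and Pax5 and on interleukin-7, whose receptor signals through Jak1, Jak3 and STAT5. A productive heavy chain pairs with the surrogate light chain (Vpreb1, Vpreb2, Igll1) and with Cd79a and Cd79b to form the pre-B receptor, and large pre-B cells divide before they become small resting cells that rearrange light chain genes. D cyclins and E cyclins drive entry into DNA replication, cyclin A and cyclin B drive later phases, and the Cdkn genes encode inhibitors of the kinases these cyclins activate.

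The 4 markers fixed for the label were detected in nearly all of the cells. In the dividing cells of the Mll3/4 deleted library a UMI of Ebf1 was present in 98.8%, of Cd79a in 99.8%, of Mki67 in 95.2% and of Top2a in 93%. In the 4658 B progenitors below the division limit these shares were 98.3%, 99.9%, 27.4% and 31.4%. The limit divided a continuous score: 285 cells lay between 4 and 5 per 10000, with a median of 4 UMIs of the 8 division genes, and 184 lay between 5 and 6, with a median of 5. The B-lineage limit divided few cells, with 2 between 15 and 20 and 2 between 20 and 25 per 10000.

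The comparison cells were fewer. The same rule gave 266 dividing B progenitors of 542 in the control, 298 of 546 with Mll3 deleted and 111 of 170 with Mll4 deleted. In these libraries B progenitors made up 6.98%, 8.61% and 3.01% of filtered cells, against 98.9% in the Mll3/4 deleted library. Dividing cells held 3087405, 3035819, 378204 and 37787661 gene UMIs in all, with medians of 10186.5, 9103, 2881 and 12793 a cell, in the order control, Mll3, Mll4 and Mll3/4 deleted, which is kept below wherever 4 values are given. Levels are CPM (counts per 1000000 gene UMIs) of counts summed over cells. Because the Mll4 deleted library is that shallow, its values are given without a fold. It also stands apart in Xist, the RNA of the inactive X chromosome, with 1342, 1253, 0 and 2061 CPM in dividing cells. Marked neutrophil RNA (at least 200 of 10000 UMIs from 10 granulocyte and neutrophil markers) occurred in 27, 11, 7 and 2 dividing cells, and leaving them out moved the summed markers from 34961 to 2205 CPM in the control, and from 499 to 73.9 CPM with Mll3/4 deleted. In the latter, Pf4, Gp1bb and Gp9 of the megakaryocyte markers and Procr of the stem cell markers were at 0, and summed erythroid markers stood at 1.69 CPM. Of the 2665 dividing cells, 101 (3.79%) carried both hashtags and 173 (6.49%) had Scrublet doublet scores among the highest. Among dividing cells these shares were higher in the control, at 6.77% and 14.7%, and with Mll3 deleted, at 6.38% and 7.72%. In non-dividing cells they were 1.81% and 3.99% in the control and 2.53% and 6.83% with Mll3/4 deleted. The 2665 dividing Mll3/4 deleted cells shared 3, 12 and 2 cell barcodes with the control, Mll3 and Mll4 deleted libraries. UMIs of Kmt2c (48.6, 27.7, 31.7 and 31.0 CPM) and Kmt2d (38.9, 28.0, 13.2 and 22.3 CPM) remained, but tags from the end of a transcript need not lie in the deleted part and so check nothing.

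Dividing cells formed a smaller share of B progenitors in the Mll3/4 deleted library than in the other 3. The share was 49.1% (exact Clopper-Pearson 95% interval 44.8 to 53.4) in the control, 54.6% (50.3 to 58.8) with Mll3 deleted, 65.3% (57.6 to 72.4) with Mll4 deleted and 36.4% (35.3 to 37.5) with Mll3/4 deleted, so the last interval lay below the others. Depth differs between these libraries. With each cell thinned to 2000 UMIs, where 1 division UMI meets the limit, the shares were 58.2%, 66.1%, 92.3% and 47.5%, leaving out 33, 51, 80 and 80 shallower B progenitors. Asking for at least 4 division UMIs in the thinned cells gave 35.2%, 37.6%, 70.3% and 24.2%, and the order of the libraries was the same. All of these cells had passed a Kit+ isolation, which can set the share, and its part in the difference was not tested.

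**Figure D1:**
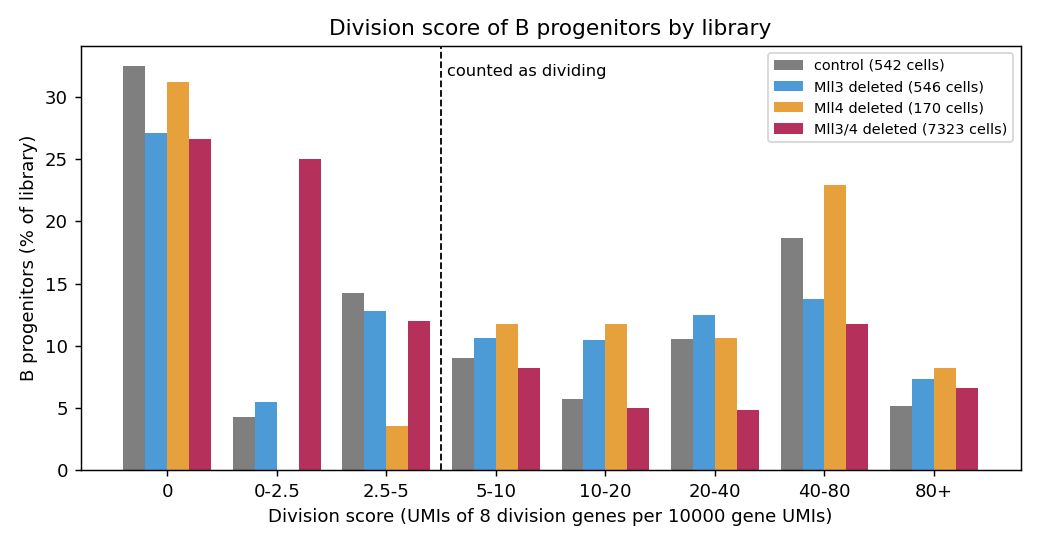
Bars give the percentage of each library's B progenitors in 8 bands of the division score (UMIs of the 8 division genes per 10000 gene UMIs), and the dashed line marks the limit of 5. The scores run on across the limit in every library, and the bands to its right hold 36.4% of B progenitors with Mll3/4 deleted, against 49.1% in the control.

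Against the non-dividing B progenitors of the same library, the dividing cells carried higher mitotic, histone and replication transcripts and few lower ones. Of 9500 genes outside the rule with at least 20 UMIs and 5 CPM in the higher group, 603 (6.35%) were at least 2-fold higher in dividing cells and 66 (0.695%) at least 2-fold lower, with 1 CPM added to both sides. With 5 CPM added 12 genes were lower, and in cells with Hashtag2 only 158. The shares of 6.35% and 0.695% are the background for the lists below and, since the division score made the groups, say nothing of independent change.

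Mitotic genes gave the widest differences. All 36 genes of a mitosis and G2/M list that holds none of the rule's genes were at least 2-fold higher, with a median log2 difference of 4.58 against -0.02 over all genes tested. Hmmr, a spindle-associated hyaluronan receptor, stood at 235 CPM in dividing and 1.76 CPM in non-dividing cells, 134-fold higher (95% interval 107 to 169). Ube2c, the ubiquitin-conjugating enzyme of the anaphase-promoting complex, stood at 674 CPM in dividing and 7.94 CPM in non-dividing cells, 84.9-fold higher (95% interval 76.5 to 94.5). Kif11, the motor that separates spindle poles, stood at 387 CPM in dividing and 4.86 CPM in non-dividing cells, 79.6-fold higher (95% interval 69.7 to 91.4). Cyclin A2 (Ccna2) stood at 173 CPM in dividing and 1.67 CPM in non-dividing cells and Cdca8, a chromosomal passenger subunit, at 307 CPM in dividing and 3.94 CPM in non-dividing cells. Esco2, Hist1h2ap, Aspm, Kif15 and Hist1h3c completed the 10 genes named by rank, with log2 differences between 5.87 and 6.02. The dividing cells of the 4 libraries lay within 2-fold of each other for the first of these genes, with 209, 154, 204 and 235 CPM for Hmmr and 637, 615, 455 and 674 CPM for Ube2c. Non-dividing cells held 5.79, 9.29, 10.8 and 1.76 CPM of Hmmr and 20.3, 37.2, 10.8 and 7.94 CPM of Ube2c. The Mll3/4 deleted values were below those of the control and the Mll3 deletion. The Mll4 deleted values rest on 59 non-dividing cells with 92521 UMIs in all, too few to rank. Median UMIs of non-dividing cells were 3325, 3223.5, 1278 and 8945, and the part of depth was not tested.

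Promoters of cell cycle genes are known for short elements that cells use to time transcription, among them the CHR, CCAAT boxes and E2F sites. The promoters of the 3 genes ranked highest are shown because their transcripts mark the cells most sharply and each holds CHR and CCAAT letters. Each runs 5′ to 3′ along the gene's strand from 250 bases before the RefSeq start (GRCm38.p6) to 50 after it, with CHR and CCAAT letters of either strand in capitals: Hmmr at chr11:40733388-40733687 on the minus strand, Ube2c at chr2:164769679-164769978 on the plus strand and Kif11 at chr19:37376132-37376431 on the plus strand.
Hmmr: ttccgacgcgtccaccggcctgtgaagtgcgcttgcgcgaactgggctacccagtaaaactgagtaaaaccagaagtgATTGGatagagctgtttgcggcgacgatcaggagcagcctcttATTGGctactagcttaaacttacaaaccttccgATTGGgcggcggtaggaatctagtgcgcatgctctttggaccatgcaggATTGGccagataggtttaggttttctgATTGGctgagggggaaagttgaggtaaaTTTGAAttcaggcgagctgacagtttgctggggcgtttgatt
Ube2c: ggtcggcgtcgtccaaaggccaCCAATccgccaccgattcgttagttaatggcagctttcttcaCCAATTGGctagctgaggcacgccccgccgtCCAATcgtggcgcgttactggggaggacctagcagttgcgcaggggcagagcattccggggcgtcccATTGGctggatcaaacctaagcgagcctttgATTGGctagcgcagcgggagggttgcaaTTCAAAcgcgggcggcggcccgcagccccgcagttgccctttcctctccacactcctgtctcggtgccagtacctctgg
Kif11: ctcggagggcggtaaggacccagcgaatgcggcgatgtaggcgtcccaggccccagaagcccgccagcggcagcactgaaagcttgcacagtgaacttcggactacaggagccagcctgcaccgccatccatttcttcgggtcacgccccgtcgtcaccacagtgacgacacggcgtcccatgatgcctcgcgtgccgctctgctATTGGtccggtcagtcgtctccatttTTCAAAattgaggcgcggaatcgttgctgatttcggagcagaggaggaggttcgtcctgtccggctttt
CHR letters were searched as TTTGAA on both strands, and the variant TTCGAA was counted with them. CHR letters occurred in 26 of the 31 mitotic promoters in the RefSeq table (83.9%), against 19.4% of all 27025 promoters of that length. CCAAT occurred in 24 of 31 (77.4%), against 37.9%, and both together in 22 of 31 (71.0%), against 7.70%. Of 29 DNA replication promoters, 5 (17.2%) held CHR letters and 16 (55.2%) CCAAT. E2F letters (TTTCCCGC, TTTCGCGC, TTTGCCGC or TTTGGCGC) were in 10 replication promoters (34.5%), in 0 mitotic ones and in 2.32% of all promoters. A match describes the letters and no factor's binding was measured.

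Histone and nucleotide genes followed. All 17 genes of the histone list, which also holds Hmgb2, were at least 2-fold higher in dividing cells, with a median log2 difference of 3.33. Linker histone Hist1h1b stood at 4869.8 CPM in dividing and 93.03 CPM in non-dividing cells. Of 35 DNA replication genes, 19 were at least 2-fold higher and 0 lower, with a median of 1.14, or 0.76 with a division limit of 10 per 10000. Thymidine kinase Tk1 stood at 152 CPM in dividing and 8.42 CPM in non-dividing cells and ribonucleotide reductase subunit Rrm2 at 245 CPM in dividing and 16.3 CPM in non-dividing cells. Some subunits of the replicative helicase were within 2-fold: Mcm6 stood at 159 CPM in dividing and 180.4 CPM in non-dividing cells, Mcm3 at 147 CPM in dividing and 133 CPM in non-dividing cells and Mcm5 at 88.0 CPM in dividing and 49.1 CPM in non-dividing cells. Of 17 DNA repair genes 12 were higher, with a median of 1.74, or 0.99 with 5 CPM added, among them Brca1 at 55.5 CPM in dividing and 6.66 CPM in non-dividing cells.

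Few genes were lower in the dividing cells. Bmf, a pro-apoptotic BH3-only protein, stood at 19.8 CPM in dividing and 63.4 CPM in non-dividing cells, 3.21-fold lower (95% interval 2.96 to 3.48). Mxd4, a partner of Max that counters Myc, stood at 37.2 CPM in dividing and 98.4 CPM in non-dividing cells, 2.65-fold lower (95% interval 2.49 to 2.81). Cyclin D2 (Ccnd2) stood at 17.5 CPM in dividing and 43.2 CPM in non-dividing cells, 2.47-fold lower (95% interval 2.26 to 2.71), and the histone demethylase Kdm5b at 42.1 CPM in dividing and 98.1 CPM in non-dividing cells. The others of the 10 named by rank were Tcp11l2, Slfn2, Zfas1, Gimap1os, S100a6 and Ltb, with log2 differences between -1.56 and -1.17. Several transcripts of kinase inhibitors were higher. Cdkn2d, which encodes the inhibitor p19Ink4d, stood at 100.2 CPM in dividing and 8.84 CPM in non-dividing cells, 11.3-fold higher (95% interval 10.2 to 12.6). Cdkn2a stood at 23.8 CPM in dividing and 5.45 CPM in non-dividing cells, Cdkn1a at 53.2 CPM in dividing and 14.7 CPM in non-dividing cells and Cdkn1c at 29.2 CPM in dividing and 9.04 CPM in non-dividing cells. In all, 7 of 19 measured brake and D cyclin genes were at least 2-fold higher and 1 lower, and 11 were within 2-fold, among them Ccnd3 at 199.7 CPM in dividing and 167 CPM in non-dividing cells and Cdkn1b at 214 CPM in dividing and 192 CPM in non-dividing cells.

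Most measured genes of B cell identity were within 2-fold between dividing and non-dividing cells. Of 12 measured pre-B receptor and immunoglobulin genes 0 were past 2-fold either way, with a median log2 difference of -0.20. In so short a list a count of 0 is near the background of 6.35% higher and 0.695% lower. Only 1 of the 12 had a log2 difference above 0, so most were lower in dividing cells by less than 2-fold. The recombinase gene Rag1 stood at 279 CPM in dividing and 483 CPM in non-dividing cells. Of 18 measured B-lineage transcription factors 1 was higher, Irf8 at 13.05 CPM in dividing and 4.79 CPM in non-dividing cells, and Pax5 stood at 369 CPM in dividing and 373 CPM in non-dividing cells. None of 13 genes of the interleukin-7 axis and none of 14 glycolysis genes was past 2-fold, with medians of -0.16 and -0.02.

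Replication and mitotic transcripts were spread differently over the division score. The score sums 8 genes of division, most of them high in mitosis, so a high mitosis list in the top band and a low one in the lower bands follow from how the bands were made, and the bands are not points in time. Over Mll3/4 deleted cells with a score of 0, above 0 to 5, 5 to 10, 10 to 20, 20 to 40 and at least 40 (1949, 2709, 599, 368, 356 and 1342 cells), the summed replication list stood at 1286, 2446, 4943, 5608, 5729 and 3637 CPM. The mitosis list stood at 418, 437, 718, 1569, 4636 and 11066 CPM, and the replication list was highest between 10 and 40. The E cyclins, which act at the start of replication, were also highest between 10 and 40: Ccne1 stood at 7.38, 24.7, 83.3, 107, 116 and 53.4 CPM and Ccne2 at 4.96, 23.0, 106, 154, 168 and 60.02 CPM. Rag1 stood at 546, 449, 374, 341, 213 and 253 CPM, lowest among the cells between 20 and 40. Cells with a score of at least 40 made up 50.4% of dividing cells, against 48.5% in the control. The control bands hold 31 to 176 cells and gave 913, 1840, 3381, 6918, 6648 and 4737 CPM for replication.

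**Figure D2:**
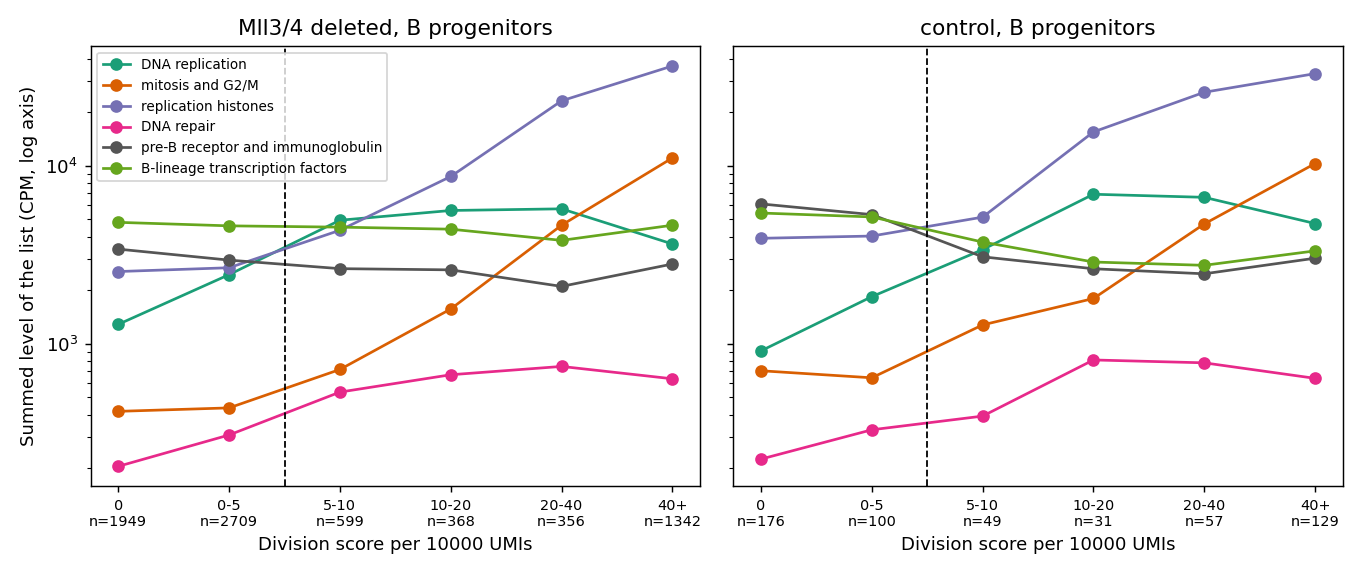
Points give the summed CPM, on a log axis, of 6 gene lists over bands of the division score in B progenitors of the Mll3/4 deleted (left) and control (right) libraries, with the limit of 5 dashed and cell numbers under each band. In both panels the replication list is highest between 10 and 40 and the mitosis list at 40 and over.

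The same division step was set beside that of the other libraries. In the control, 903 of 7765 genes (11.6%) were at least 2-fold higher in dividing cells and 750 (9.66%) lower. With Mll3 deleted, 636 of 7242 (8.78%) were higher and 535 (7.39%) lower. The summed totals bear on these counts, so the Mll3/4 sums were thinned to the control's totals, which gave 796 of 7624 (10.4%) higher and 115 (1.51%) lower. At equal summed totals 796 genes were higher, against 903 in the control, and 115 lower, against 750. Depth a cell was not matched: non-dividing cells had medians of 8945 UMIs with Mll3/4 deleted and 3325 in the control, and its part in the counts was not tested. Neutrophil-rich cells were 27 of 266 dividing and 5 of 276 non-dividing control cells. Summed neutrophil markers there stood at 34961 CPM in dividing and 5819 CPM in non-dividing cells. The part of such RNA in the control counts was not tested.

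The B-lineage lists were among those with fewer lower genes. In the control, 10 of 18 measured pre-B receptor and immunoglobulin genes were at least 2-fold lower in dividing cells, with a median of -1.49. With Mll3 deleted 14 of 20 were, with a median of -1.36. These sets are wider than the 12 genes measured with Mll3/4 deleted. Over the 12 genes measured in both that library and the control, the medians were -0.20 and -0.93. Summed mature B markers were 1047 CPM in non-dividing and 263 CPM in dividing control cells, 3839 and 980 CPM with Mll3 deleted, and 191 and 245 CPM with Mll3/4 deleted. The part of these mature cells in the difference was not tested. Rag1 stood at 152 CPM in dividing and 668 CPM in non-dividing cells in the control, against the 279 CPM in dividing and 483 CPM in non-dividing cells given above. Of B-lineage transcription factors, 6 of 21 were lower in the control and 0 of 18 with Mll3/4 deleted. The shares of lower genes over all genes were 9.66% in the control, 7.39% with Mll3 deleted and 0.695% with Mll3/4 deleted. In so short a list a count of 0 is near that last share, and fewer lower genes were found across all genes of that library. Foxo1, which activates Rag and Il7r genes, stood at 74.8 CPM in dividing and 197 CPM in non-dividing cells in the control and at 427 CPM in dividing and 519 CPM in non-dividing cells with Mll3/4 deleted. For all 18 factors measured in both libraries the log2 step was higher with Mll3/4 deleted, by a median of 0.71, against 0.12 over 7328 genes.

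The replication step was smaller with Mll3/4 deleted and the mitotic step larger, and both cell groups enter a step. In dividing cells, Mll3/4 deleted against control, the median log2 differences were -0.34 for replication and 0.06 for mitosis. In non-dividing cells they were 0.65 over 30 measured genes and -0.82 over 11. Median UMIs of non-dividing cells were 8945 with Mll3/4 deleted and 3325 in the control, and the part of depth was not tested. The median log2 step of replication genes was 1.14, against 1.94 in the control and 1.57 with Mll3 deleted, and was below the control's for 29 of 35 genes. The mitotic median was 4.58, against 3.79 and 3.20, and above the control's for 32 of 36. Mcm6 shows the former: it stood at 201 CPM in dividing and 71.4 CPM in non-dividing cells in the control and 159 CPM in dividing and 180.4 CPM in non-dividing cells with Mll3/4 deleted, so that in the latter non-dividing cells held more than dividing ones. For Cdc25b, a phosphatase that activates Cdk1, dividing cells held 101, 101, 124 and 78.8 CPM and non-dividing cells 178, 107, 86.5 and 27.4 CPM. Its log2 step was 1.49 with Mll3/4 deleted, -0.81 in the control and -0.09 with Mll3 deleted.

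**Figure D3:**
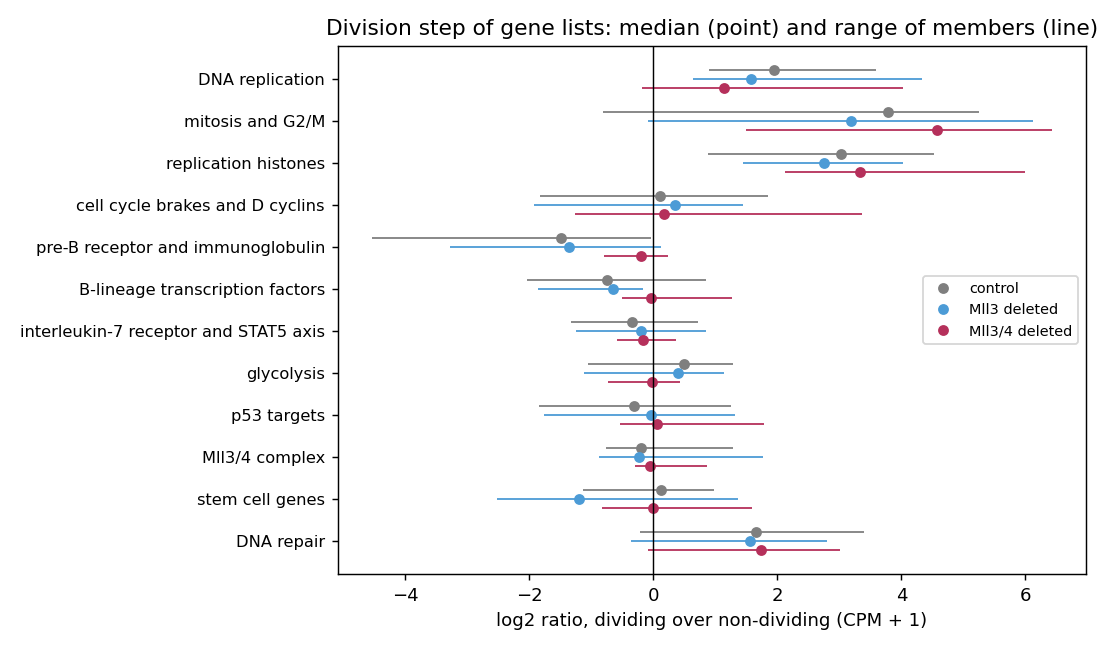
For each of 12 gene lists, the point is the median and the line the range over measured members of the log2 ratio of dividing over non-dividing B progenitors (1 CPM added) in the control, Mll3 deleted and Mll3/4 deleted libraries. The mitosis medians lie at 3.79, 3.20 and 4.58, and the B-lineage transcription factor medians at -0.75, -0.64 and -0.04.

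Dividing B progenitors were next compared between libraries, with those of the control and those of the Mll3 deletion, using the same dividing Mll3/4 deleted cells on one side of both comparisons. Against the control, 816 of 9646 genes (8.46%) were at least 2-fold higher and 834 (8.65%) lower. Against Mll3 deletion, 917 of 9491 (9.66%) were higher and 618 (6.51%) lower, and in cells of Hashtag2 only 1178 were higher and 357 lower. Without the neutrophil-rich cells the counts against the control were 836 and 603, so the higher calls outnumbered the lower ones. The mitosis list had 0 of 36 genes past 2-fold in either comparison and medians of 0.06 and 0.19, and the histone list 0 of 17 and 1 of 17.

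The cyclins and brakes that lead into replication differed between the libraries. Ccnd2 stood at 75.8, 79.1, 156 and 17.5 CPM, 4.34-fold lower (95% interval 3.72 to 5.04) than in the control and 4.53-fold lower (95% interval 3.89 to 5.25) than with Mll3 deleted. Ccnd3, the D cyclin that large pre-B cells need, stood at 491, 471, 639.9 and 199.7 CPM, 2.46-fold lower (95% interval 2.32 to 2.60) than in the control. The E cyclins went the other way: Ccne1 stood at 32.4, 34.6, 84.6 and 74.3 CPM and Ccne2 at 37.9, 38.9, 129.6 and 95.2 CPM, 2.30-fold higher (95% interval 1.88 to 2.83) and 2.51-fold higher (95% interval 2.09 to 3.05) than in the control. With a B-lineage limit of 60 per 10000 their log2 differences from the control were just under the 2-fold limit, at 0.98 and 0.97, and in cells of Hashtag1 only they were 0.90 and 0.69. Among inhibitors, Cdkn1c stood at 5.51, 3.62, 7.93 and 29.2 CPM and Cdkn2c at 118, 111, 222 and 256 CPM, and the log2 difference of Cdkn2c was likewise 0.96 under that limit and 0.89 in cells of Hashtag2 only. Cdkn2a gave 2, 6, 1 and 899 UMIs, a ratio to the control of 36.7 (95% interval 10.1 to 304). Cdkn2d was lower, at 227, 225, 137 and 100.2 CPM. The antiproliferative gene Btg1 stood at 139, 117, 307 and 666 CPM, 4.79-fold higher (95% interval 4.36 to 5.29). In each of the 2 comparisons, 4 of the 20 brake and D cyclin genes were at least 2-fold higher and 4 lower. The lower genes against the control include Ccnd1, with a log2 difference of -1.91 that was within 2-fold under several settings. It was -0.95 with the B-lineage limit of 60, -0.83 without the highest Scrublet scores and -0.69 in cells of Hashtag1 only. Cyclin E genes belong to the replication list, where 2 of 35 genes were at least 2-fold higher than in the control and 2 lower. Over all genes the shares were 8.46% and 8.65%. The list's median log2 difference was -0.34, with 6 genes above 0. The 2 lower genes were Gins1 (28.5, 32.6, 34.4 and 12.8 CPM) and Gins2 (87.8, 87.6, 63.5 and 36.8 CPM), subunits of the replicative helicase. Gins1 was lower by less than 2-fold with 5 CPM added (log2 difference -0.91).

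**Figure D4:**
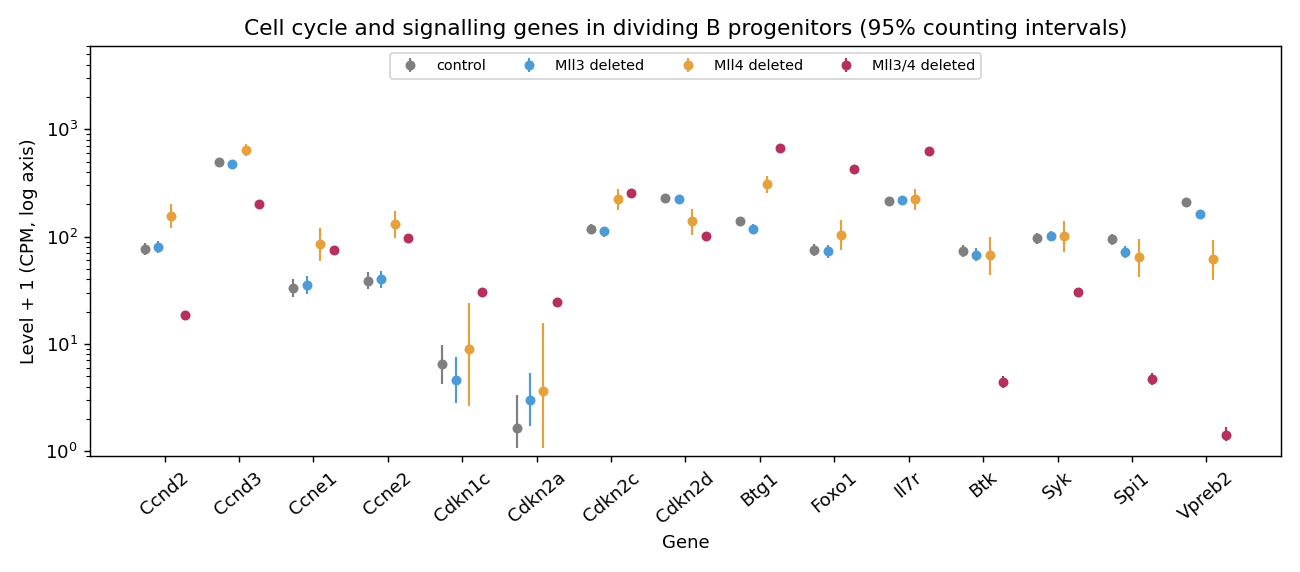
Points give CPM plus 1, on a log axis, of 15 genes in dividing B progenitors of the 4 libraries, and lines are exact Poisson 95% intervals of counting error. Ccnd2, Btk, Spi1 and Vpreb2 lie lowest in the Mll3/4 deleted library, and Foxo1, Il7r and Btg1 lie highest there.

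Transcripts of the pre-B receptor and its signalling chain divided into kept and low. The surrogate light chain gene Vpreb2 stood at 211, 160.4, 60.8 and 0.423 CPM, from 650 UMIs in the control and 16 in the Mll3/4 deleted cells, 497-fold lower (95% interval 304 to 875). Its neighbour in function Vpreb1, which is part of the selecting rule, stood at 1969.6, 1872, 1243 and 2575 CPM. The paralogs Vpreb1 and Vpreb2 are similar in sequence, so their division of UMIs is uncertain. Btk, the kinase downstream of the receptor, stood at 72.9, 66.9, 66.1 and 3.41 CPM, 21.3-fold lower (95% interval 17.1 to 26.7) than in the control and 19.6-fold lower (95% interval 15.6 to 24.6) than with Mll3 deleted. Phospholipase Plcg2 stood at 57.3, 52.0, 74.0 and 8.47 CPM, 6.77-fold lower (95% interval 5.60 to 8.16). The kinases Syk (95.2, 100.5, 100.5 and 29.3 CPM) and Lyn (54.1, 52.7, 87.3 and 18.9 CPM) were lower, and Blk gave 31, 46, 8 and 3 UMIs. The adaptor Blnk stood at 340.4, 353, 280.3 and 446 CPM and the heavy chain constant gene Ighm at 790.0, 861, 994 and 867 CPM, within 2-fold of the control. In all 7 of 15 measured genes of the list were lower than in the control and 11 of 19 lower than with Mll3 deleted, with 0 higher in either. Among all genes 8.65% and 6.51% were lower in these comparisons, and 8.46% and 9.66% higher. Light chain genes Iglc1 (3.56, 119.9, 0 and 0.0265 CPM) and Iglc2 (4.53, 106, 2.64 and 0.132 CPM) were among the lowest against Mll3 deletion. Summed mature B markers in dividing cells were 263, 980, 941 and 245 CPM.

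Transcription factors went in both directions. Foxo1 stood at 74.8, 71.8, 103 and 427 CPM, 5.71-fold higher (95% interval 5.01 to 6.53) than in the control and 5.95-fold higher (95% interval 5.20 to 6.83) than with Mll3 deleted. The E protein Tcf4 stood at 229, 192, 251 and 784 CPM and Bcl11a at 128, 102, 159 and 270.4 CPM. Bcl11a was past 2-fold against the control only narrowly, with a log2 difference of 1.07 that was between 0.78 and 0.98 under 5 of the alternative settings. Spi1, which encodes PU.1, stood at 93.3, 70.8, 63.5 and 3.68 CPM, 25.4-fold lower (95% interval 20.6 to 31.3), and without neutrophil-rich cells it was 59.4, 56.3 and 3.29 CPM in the control, Mll3 and Mll3/4 deleted cells. Its partners Irf8 (79.4, 71.2, 95.2 and 13.05 CPM) and Irf4 (25.9, 23.7, 79.3 and 9.47 CPM) were lower too, Irf4 by less than 2-fold in cells of Hashtag1 only (log2 difference -0.91). Pax5 stood at 198, 187, 214 and 369 CPM and Ebf1, a rule gene, at 1755, 1595, 1806 and 1669.8 CPM. Of 21 measured factors 3 were higher and 5 lower than in the control, and of 22 measured against Mll3 deletion 4 were higher and 6 lower. Among all genes 8.46% were higher and 8.65% lower than in the control, and 9.66% and 6.51% against Mll3 deletion.

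Genes of the interleukin-7 axis went in both directions, with a median log2 difference of 0.26 against the control and -0.02 against Mll3 deletion. Il7r stood at 213, 219.7, 222 and 625 CPM, 2.94-fold higher (95% interval 2.72 to 3.18) than in the control. Socs2 stood at 68.0, 41.5, 95.2 and 228 CPM and Cish at 8.10, 5.60, 10.6 and 20.2 CPM, 2 feedback inhibitors that STAT5 induces, and the survival gene Bcl2l1 at 21.7, 22.1, 23.8 and 57.5 CPM. Jak3 (10.7, 7.91, 5.29 and 3.33 CPM) and Stat5a (21.7, 18.4, 15.9 and 8.76 CPM) were lower, so 4 of 13 measured genes were at least 2-fold higher and 2 lower than in the control. For this list and the p53 list below, the shares over all genes were 8.46% higher and 8.65% lower. The calls of Cish, Jak3 and Stat5a were lost with 5 CPM added, at log2 differences of 0.94, -0.91 and -0.96. Other genes that STAT5 can induce, Pim1 (106, 79.4, 132 and 62.1 CPM), Mcl1 (168, 162, 233 and 116 CPM) and Bcl2 (24.6, 23.1, 74.0 and 16.4 CPM), stood below the control within 2-fold. Of 10 measured p53 target genes 3 were higher than in the control: Phlda3 at 3.89, 4.28, 21.2 and 28.1 CPM, Zmat3 at 1.30, 1.32, 10.6 and 16.8 CPM and Bbc3, which encodes Puma, at 2.59, 1.32, 13.2 and 15.2 CPM. Cdkn1a (54.4, 58.0, 31.7 and 53.2 CPM) and Mdm2 (35.0, 34.9, 100.5 and 38.5 CPM), which also answer to p53, were within 2-fold.

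Stem cell genes were split. Against the control 7 of 10 measured were higher and 3 lower, with a median log2 difference of 1.53 that turned to -0.58 without the filter on low counts. The shares over all genes were 8.46% higher and 8.65% lower. Hoxa9 stood at 8.42, 14.8, 18.5 and 80.4 CPM, 9.55-fold higher (95% interval 6.51 to 14.6), and Eya1 at 2.27, 13.8, 2.64 and 95.7 CPM, 42.2-fold higher (95% interval 20.5 to 105). Kit stood at 68.7, 54.0, 156 and 174 CPM, and Meis1 and Flt3 at 14.9, 17.1, 39.7 and 51.6 CPM and 6.80, 5.93, 2.64 and 26.8 CPM, with Flt3 at a log2 difference of 0.87 from the control in cells of Hashtag1 only. Cd34 gave 62, 67, 2 and 4 UMIs, and Hlf and Mecom were near 0 in the Mll3/4 deleted cells at 0.0529 and 0.344 CPM. Under the B-lineage limit of 60 the log2 difference of Hlf moved from -3.97 to -0.52.

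The genes with the widest differences are mostly not known for a part in B cells. Gria2, an AMPA glutamate receptor subunit, stood at 8.10, 0, 21.2 and 496 CPM, 61.3-fold higher (95% interval 41.5 to 94.7) than in the control. The prolactin receptor Prlr stood at 5.51, 4.61, 10.6 and 339 CPM, 61.5-fold higher (95% interval 38.4 to 106). The ephrin receptor Epha5 gave 1, 0, 10 and 5539 UMIs. These transcripts were close to absent from the control and Mll3 deleted dividing cells and present in both dividing and non-dividing Mll3/4 deleted cells, where Gria2 was 496 CPM in dividing and 622 CPM in non-dividing cells and Prlr 339 CPM in dividing and 378 CPM in non-dividing cells. Brinp3, Serp2, Flrt2 and Mab21l2 were at 0 in the dividing cells of the other 3 libraries and were at least 75.5-, 66-, 56.8- and 46.8-fold higher than the control, against a floor of 3 UMIs over that group. Cpne8, Ntn1 and Ly6c1 completed the 10 named by rank, at 81.5, 72.7 and 71.7 CPM with Mll3/4 deleted. Against Mll3 deletion the list also named the kinase Zap70 (4.21, 0.659, 34.4 and 142 CPM), Rnase10 (1.94, 0, 2.64 and 117 CPM) and Sel1l3 (0.324, 0, 2.64 and 55.8 CPM).

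Among the lowest genes were some of other cell types. Camp, Ltf, Lyz2 and Ngp, products of neutrophils and monocytes, stood in the control at 5664, 961, 1585 and 3777 CPM and in the Mll3/4 deleted cells at 56.1, 10.1, 16.4 and 46.7. Without neutrophil-rich cells the control values were 229, 41.1, 155 and 114. The neutrophil markers made up 60249 CPM of the whole control library and 2392 CPM of the Mll3/4 deleted one, and the part of such RNA in these differences was not tested. Myl10 (119, 73.5, 23.8 and 0.450 CPM), Napsa (115, 131, 74.0 and 0.423 CPM), Emp3 (212, 220.04, 106 and 1.46 CPM) and Cd93 (169, 160.4, 151 and 1.46 CPM) were also low with Mll3/4 deleted. So were Car1 (90.7, 51.7, 145 and 0.0794 CPM), an erythroid carbonic anhydrase, and, in the comparison with Mll3 deletion, the invariant chain Cd74 (45.3, 224, 233 and 0.953 CPM), the galectin Lgals1 (439, 669, 106 and 7.99 CPM) and the myeloperoxidase gene Mpo (259.8, 435, 510.3 and 5.50 CPM).

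At the protein level, dividing Mll3/4 deleted cells had high CD117 (the Kit receptor) and low CD48 and B220. Median antibody counts a cell for CD117 were 60, 59.5, 85 and 329, and the quartiles of the Mll3/4 deleted cells were 183 and 547. For CD48 they were 1071.5, 899, 964 and 29, and for B220, a CD45 isoform of B cells, 165, 164.5, 182 and 15. CD127, the interleukin-7 receptor, was at 38.5, 43, 58 and 58. CD117 took 46.1% of surface antibody counts in the Mll3/4 deleted cells, against 5.39% in the control, and CD48 took 21.3% against 67.4%. Non-dividing Mll3/4 deleted cells had medians of 233 for CD117, 41 for CD127 and 26 for CD48, all lower than in dividing cells, with CD48 by the smallest number of counts. Median total surface counts were also lower, at 519 against 680. As shares of surface counts, non-dividing cells had 41.6% for CD117 and 6.99% for CD127, against 46.1% and 7.69% in dividing cells. The share of CD48 went the other way, at 22.4% against 21.3%. Along the score bands median CD117 was higher, from 213 at a score of 0 to 393 at 40 and over, and so were median UMIs a cell, from 7550.0 to 14540.0. Antibody counts were not normalised, all cells had been isolated as Kit+, and the part of depth was not tested.

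**Figure D5:**
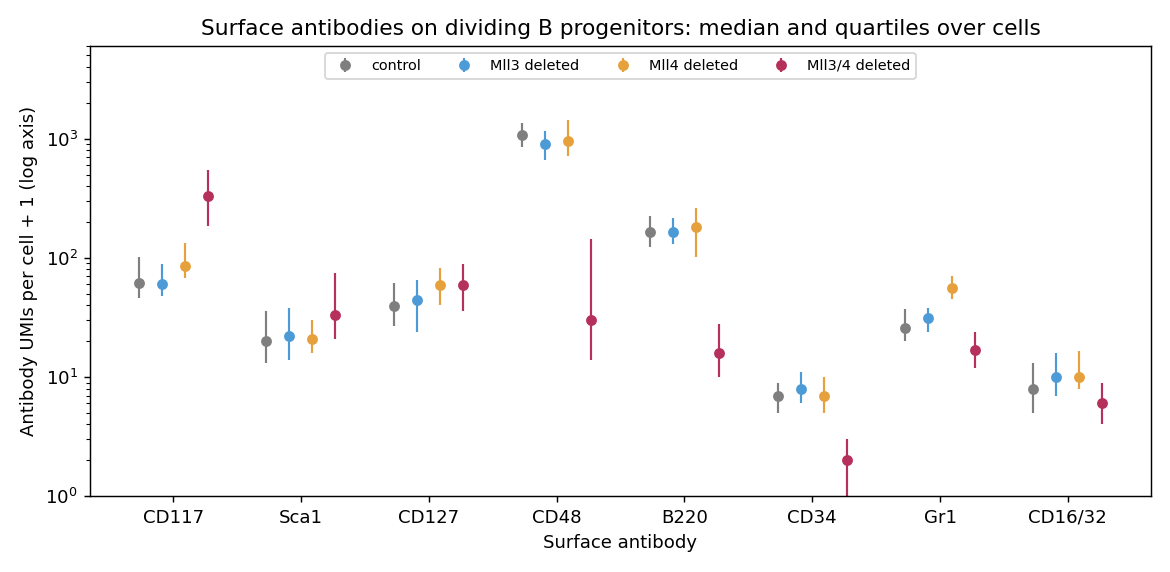
Points are median antibody UMIs a cell plus 1, on a log axis, and lines the quartiles over dividing B progenitors of the 4 libraries, for 8 of the surface antibodies. The Mll3/4 deleted cells lie above the other libraries for CD117, with a median of 329, and below them for CD48, with a median of 29, and B220, with a median of 15.

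CD48 protein divided the Mll3/4 deleted dividing cells. At least 100 counts were found on 751 cells (28.2%), 30 to 99 on 581 and under 30 on 1333 (50.02%), whereas 99.6% of control dividing cells had at least 100. Cd48 RNA followed the protein, at 34.7 CPM (exact Poisson 95% interval 31.4 to 38.2), 2.76 CPM (1.78 to 4.07) and 0.763 CPM (0.406 to 1.30). Over all dividing cells Cd48 stood at 126, 118, 95.2 and 11.7 CPM, while Ptprc, which encodes CD45 and its B220 form, stood at 105, 94.2, 159 and 109 CPM, within 2-fold of the control. Median division scores in the 3 groups were 38.9, 43.4 and 39.8 per 10000. Both neutrophil-rich cells were in the group with at least 100 counts, where summed neutrophil markers stood at 1452 CPM, against 69.5 and 74.8 CPM in the other two, and the part of such RNA in the Cd48 level was not tested.

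The 2 hashtags marked cells that differed. Cells with Hashtag1 only (1412) and Hashtag2 only (1116) had dividing shares among B progenitors of 35.8% and 36.6%, with overlapping intervals. Their median CD117 counts were 236 and 457.5 and their CD48 counts 21 and 41, and the median UMIs were 11780.5 and 14250.0. By gene, Gria2 stood at 661 and 311 CPM, Ltb at 50.6 and 10.0, Klf2 at 57.0 and 17.7, Myc at 32.8 and 73.6 and Flt3 at 16.3 and 37.3. These 5 genes were chosen after their values were seen.

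Heavy chain variable (Ighv) transcripts were present in most of the dividing Mll3/4 deleted cells and in few of the others. Rearranged variable segments are normally transcribed from 1 functional allele in a B cell, and unrearranged segments give germline transcripts in progenitors. UMIs of 185 Ighv genes summed to 4.21, 14.2, 5.29 and 345 CPM in dividing cells, and a UMI was found in 4.89%, 13.1%, 1.80% and 94.1% of cells, at median depths of 10186.5, 9103, 2881 and 12793 UMIs. In the Mll3/4 deleted library 2.56% of 78 cells with a B-lineage sum under 5 per 10000 had one, at a median of 18355 UMIs, and in the control 0.528% of such cells did. The UMIs were spread over segments: 142 of the 185 genes were detected, and of 1858 cells with at least 3 Ighv UMIs only 24 (1.29%) had 80% or more from 1 gene, with a median of 4 genes a cell. Ighv1-23 took 22.2% of Ighv UMIs (76.6 CPM), Ighv1-66 took 13.8% (47.7 CPM) and Ighv1-76 took 13.4% (46.2 CPM), all on chromosome 12. Non-dividing Mll3/4 deleted cells gave 459 CPM and 93.3% of cells. Ighv genes resemble each other, so the division of UMIs among them is uncertain. Tags from the end of a transcript need not lie in the variable segment of a rearranged heavy chain. These counts therefore do not measure which rearranged segments the cells use.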

How the data were processed

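Gene and antibody values are UMI counts deposited by the authors as 1 filtered matrix for each library, made with Cell Ranger 6.1.2 on mm10 per the submitters' processing notes. The matrices hold 32285 genes, 13 surface antibodies and 2 hashtags. Raw counts of cells passing the limits in the report were summed and divided by total gene UMIs to give CPM, with exact Poisson intervals. Ratios have exact conditional binomial intervals and shares Clopper-Pearson intervals, all at 95%. PCR duplicates are removed by UMIs, and the intervals hold no variation between animals.

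With 1 library in each group no count model or p-value was used. A gene was called at 2-fold or more, with 1 CPM added, among genes with at least 20 counts and 5 CPM in the higher group; the 14 rule genes were left out. Genes named by rank are the 10 with the largest log2 difference in each direction among those with at least 50 counts and 20 CPM in the higher group; a few genes are not reported here. The members, the 12 gene lists and the comparisons were chosen with earlier results of these data known. Cells were not removed as doublets; alternatives leave out double-hashtag cells or the highest Scrublet scores. Promoter windows came from the RefSeq table of GRCm38.p6, using the first window listed for a gene.

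Python 3.11.15, NumPy 2.4.6, SciPy 1.17.1, pandas 2.3.3, Scanpy 1.11.5 (Scrublet) and Matplotlib 3.10.9 were used.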

Additional observations from a re-analysis of the deposited data

Results flagged for a closer look

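For Cdc25b the log2 ratio of dividing over non-dividing B progenitors had opposite signs in 2 libraries. It was 1.49 with Mll3/4 deleted and -0.81 in the control, a difference of 2.30. Over the score bands, from 0 to at least 40, Cdc25b stood at 32.3, 24.8, 30.3, 29.6, 33.6 and 116 CPM with Mll3/4 deleted. In the control it stood at 202, 145, 138, 39.2, 51.7 and 134 CPM, in bands of 31 to 176 cells. Both libraries were higher at 40 and over than between 10 and 40, and the control was also high below 10. The difference was not tested, since each genotype has 1 library.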

How the results depend on the processing

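The dividing share of 36.4% became 28.2% with a division limit of 10 per 10000, 35.0% with a B-lineage limit of 60 per 10000 and 47.5% with each cell thinned to 2000 UMIs. The 1650 genes past 2-fold against the control became 2573 with no filter on low counts and 696 with at least 100 counts and 20 CPM, and the 1535 against Mll3 deletion became 2506 and 682; these filters change how many genes are tested. The 669 genes of the division step ranged from 456 to 911. Against the control the split of 816 higher and 834 lower became 905 and 543 without the highest Scrublet scores, and, as alternatives chosen after seeing the data, 836 and 603 without neutrophil-rich cells and 1002 and 483 in cells of Hashtag1 only. Against Mll3 deletion the split of 917 and 618 became 1145 and 440 in cells of Hashtag1 only and 1178 and 357 in cells of Hashtag2 only. The median log2 difference of stem cell genes against the control turned from 1.53 to -0.58 with no filter on low counts, which adds genes at low levels. Of 240 genes followed, 0 changed direction past the 2-fold limit under the other settings and up to 17 were no longer past it, the most with 5 CPM added. No paired analysis was possible because each group has 1 library. The Mll4 deleted library, with 111 dividing cells, limits what can be read from its levels.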
